A study of Gallus gallus with 2 samples.

Results

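CTCF peaks on the intermediate chromosomes of the chicken, chromosomes 6, 7, 8, 9 and 10, are described here. They were taken as every row of both deposited peak lists that carried one of these 5 chromosome names, with no use of any measured value. That gave 3250 of 21358 peaks in the list of the 10 day library and 873 of 5830 in the list of the 5 day library, or 4123 of 27188 peaks in all. Both libraries came from chicken (Gallus gallus) red blood cells, in which chromatin was precipitated with an antibody to CTCF and the DNA sequenced on an Illumina Genome Analyzer. One group was 10 days old and the other 5 days old, and each was a single library. The labels name no strain, genotype or treatment that tells the groups apart, and say neither whether age was counted before or after hatching nor how many animals were pooled. The growth and treatment fields of both libraries describe cultured mononuclear cells, stimulated with PMA and Io, which does not match the cell type field, and no expression data were at hand to check the cell type against markers. Read depth is unknown. With 1 library per age there is no test of age, and the intervals given below cover counting error within these 2 libraries only.

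CTCF is a zinc finger DNA-binding protein. It acts at insulators, where it can block an enhancer from acting on a promoter, and it holds cohesin at the bases of chromatin loops, often at the borders of topological domains. Bird red cells keep their nucleus, and the chicken beta-globin insulator was among the first vertebrate insulators in which CTCF was shown to act. The chicken karyotype runs from a few large, gene-poor macrochromosomes to many small, gene-dense microchromosomes, and chromosomes 6 to 10 lie between them in size.

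Peaks lay on all 5 chromosomes at 18.7 to 23.6 per Mb in the 10 day list and at 4.33 to 6.81 per Mb in the 5 day list, counted over the span from base 0 to the last peak end in either list. Chromosome 6 held 768 peaks in the 10 day list and 202 in the 5 day list over a span of 37.4 Mb, which is 20.5 and 5.40 per Mb. Chromosome 7 held 759 and 166 peaks at 10 and 5 days over 38.4 Mb, or 19.8 and 4.33 per Mb. Chromosome 8 held 724 and 184 peaks at 10 and 5 days over 30.7 Mb, or 23.6 and 6.0 per Mb. The longest of the 5, chromosome 7, was thus the sparsest at 5 days, and chromosome 8 was the densest at 10 days. Chromosome 9 held 577 and 174 peaks at 10 and 5 days over 25.6 Mb, or 22.6 and 6.81 per Mb. Chromosome 10, the shortest, held 422 and 147 peaks at 10 and 5 days over 22.5 Mb, or 18.7 and 6.52 per Mb. It had the lowest density of the 5 at 10 days and the second highest at 5 days.

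**Figure D1:**
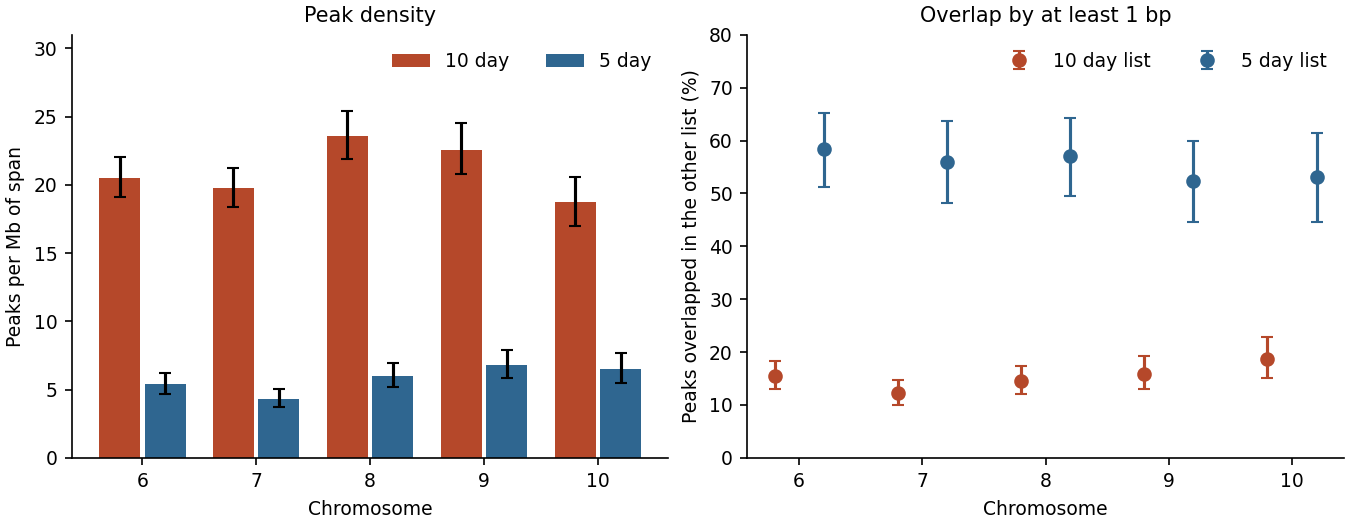
Left, peaks per Mb of span on each chromosome in the 10 day and 5 day lists (bars, with exact Poisson 95% intervals); right, the percentage of each list's peaks overlapped by at least 1 bp in the other list (points, with Clopper-Pearson 95% intervals). Chromosome 10 is lowest at 10 days (18.7 per Mb) and chromosome 7 at 5 days (4.33 per Mb), and the 10 day shares lie between 12.3% and 18.7%.

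The order of the chromosomes was not the same in the 2 lists. Of the 10 pairs of chromosomes, 5 had a density ratio whose exact conditional binomial 95% interval left out 1 in the 10 day list, and 5 in the 5 day list; these intervals were not adjusted for the number of pairs. At 10 days chromosome 10 had 0.793 times the density of chromosome 8 (0.702 to 0.895) and 0.829 times that of chromosome 9 (0.730 to 0.942). At 5 days the same 2 ratios were 1.09 (0.869 to 1.36) and 0.958 (0.764 to 1.20), both with 1 inside the interval. By these intervals chromosomes 8 and 9 were both denser than chromosome 7 at each age. The intervals allow for counting error only, and counts in 1 Mb bins, given below, varied more than that. Chromosome 9 had 1.14 times the chromosome 7 density at 10 days (1.02 to 1.27) and 1.57 times at 5 days (1.26 to 1.96). Neighbours in the order did not differ beyond counting error in several cases: chromosomes 9 and 8 had a ratio of 0.956 (0.856 to 1.07) at 10 days and 1.13 (0.917 to 1.40) at 5 days.

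The number of 10 day peaks for each 5 day peak also varied among the 5. It was 4.57 on chromosome 7 (95% interval 3.86 to 5.44), 3.93 on chromosome 8 (3.34 to 4.65), 3.80 on chromosome 6 (3.25 to 4.46), 3.32 on chromosome 9 (2.79 to 3.95) and 2.87 on chromosome 10 (2.37 to 3.49). The intervals of chromosomes 7 and 10 did not overlap. In the whole lists the ratio was 3.66 (3.56 to 3.77). It was 5.21 (4.97 to 5.46) on chromosomes 1 to 5 and 2.68 (2.54 to 2.83) on chromosomes 11 to 28. Among 27 autosomes spanning at least 1 Mb it ran from 6.14 on chromosome 2 to 1.86 on chromosome 28, so the 5 chromosomes lay within a wider range. Limiting the 10 day list by score to 5809 peaks, about the length of the 5 day list, left 845 peaks on the 5 chromosomes. The ratio was then 1.08 on chromosome 7 (180 over 166 peaks), 1.02 on chromosome 6, 0.989 on chromosome 8, 0.897 on chromosome 9 and 0.816 on chromosome 10 (120 over 147 peaks). Chromosomes 7 and 10 stayed at the ends of the order. No interval was computed for these ratios, so they do not show that the 2 chromosomes still lay apart beyond counting error.

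Pooled, the 5 chromosomes lay between chromosomes 1 to 5 and chromosomes 11 to 28 in density at each age. Their density was above that of chromosomes 1 to 5, by a factor of 1.20 (95% interval 1.15 to 1.25) at 10 days and of 1.68 (1.55 to 1.81) at 5 days. Against chromosomes 11 to 28 it was 0.745 times at 10 days (0.712 to 0.778) and 0.536 times at 5 days (0.494 to 0.581). These differences exceed counting error within a library, and no test over animals was possible. For peaks of the top decile of each list by score, the ratio to chromosomes 1 to 5 was 1.49 at 10 days (1.29 to 1.71) and 1.63 at 5 days (1.23 to 2.16). For the unmatched 10 day peaks, those overlapped by no 5 day peak, it was 1.14 (1.10 to 1.19), and for the unmatched 5 day peaks, overlapped by no 10 day peak, it was 1.76 (1.56 to 1.98). Among 27 autosomes spanning at least 1 Mb, ordered from the highest density down, chromosome 10 ranked 23 at 10 days and 19 at 5 days, although it ranked 10 in span. Chromosomes 6, 7, 8 and 9 ranked 19, 21, 16 and 17 at 10 days, and 21, 23, 20 and 17 at 5 days. Single chromosomes crossed the pooled order. Chromosome 10 lay below chromosome 5 at 10 days (18.7 and 19.5 per Mb), chromosome 7 lay below chromosome 5 at 5 days (4.33 and 5.13 per Mb), and chromosomes 8 and 9 lay above chromosome 11 at 10 days (23.6, 22.6 and 20.5 per Mb).

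In 152 complete bins of 1 Mb, counted from base 0, the 10 day list had a median of 21 peaks (interquartile range 15 to 25.3) and at most 50, while the 5 day list had a median of 5 (2 to 8.25) and at most 21. The median bin held 20, 20, 24, 23 and 16.5 peaks at 10 days on chromosomes 6, 7, 8, 9 and 10 in that order, and 4, 4, 5, 5 and 5 at 5 days. Counts varied more between bins than counting alone gives, and the density and ratio intervals above do not cover this variation. The variance was 3.53 times the mean over all bins at 10 days, with a range of 3.05 (chromosome 8) to 3.82 (chromosome 10), and 3.33 times the mean at 5 days, with a range of 2.78 (chromosome 10) to 3.90 (chromosome 8). The 31 fullest of the 152 bins held 32.2% of the peaks at 10 days and, ranked anew, 45.6% at 5 days. No 10 day peak fell in 3 of the bins and no 5 day peak in 13, and 27 held no 10 day peak that was overlapped by a 5 day peak. The bins include the long stretches empty in both lists, described below, and the 3 bins without a 10 day peak lay inside them. The variance without these stretches was not computed. In no bin with peaks did the 5 day count reach the 10 day count.

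**Figure D2:**
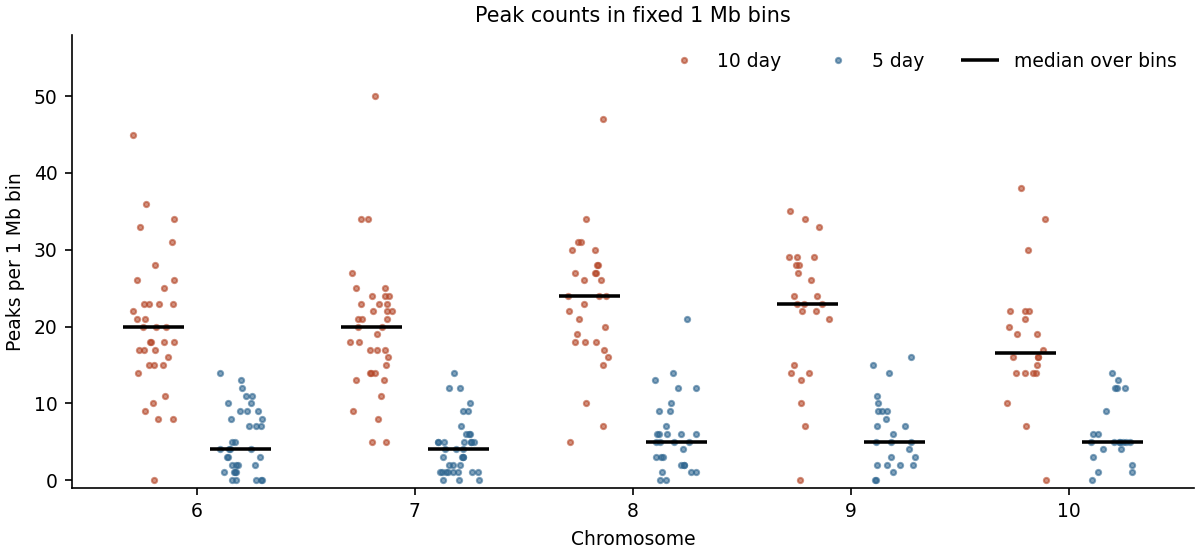
Number of peaks in each complete 1 Mb bin (points, spread sideways for visibility) of the 5 chromosomes in the 10 day and 5 day lists, with the median over bins as a line. The fullest bins hold 50 peaks at 10 days (chromosome 7) and 21 at 5 days (chromosome 8).

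Bins that were full in one list tended to be full in the other. The Spearman correlation of the 10 day and 5 day counts was 0.58 over the 152 bins, and 0.69 on chromosome 6, 0.44 on chromosome 7, 0.70 on chromosome 8, 0.53 on chromosome 9 and 0.55 on chromosome 10, over 37, 38, 30, 25 and 22 bins in that order. These values describe bins of the same 2 libraries, which share the sequence and its mappability, and both counts include the peaks listed at both ages. Without the 10 day peaks overlapped by a 5 day peak, the correlation with the 5 day counts was 0.36 over all bins, from 0.22 on chromosome 7 to 0.47 on chromosome 6.

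Along the span, the last of 5 equal parts, farthest from base 0, was the densest at 10 days on each of the 5 chromosomes. Over the 5 chromosomes together it held 26.4 peaks per Mb at 10 days and 7.09 at 5 days, against 17.8 and 4.47 in the first part. The first parts include sequence empty in both lists, so this contrast rests partly on peak-free stretches. These are the starts of chromosomes 6 and 9, up to bases 1604166 and 1575148, and internal stretches of chromosomes 10 (whole) and 7 (in part). Densities of the parts without such stretches were not computed. The last part of chromosome 10 held 27.3 peaks per Mb at 10 days and 10.6 at 5 days, while its other parts held 16.0 to 17.1 and 3.33 to 7.54. The first part of chromosome 10 spans 4.51 Mb and contains a stretch of 1561 kb that was empty in both lists, which lowers its density at both ages. All of its 74 peaks at 10 days and 34 at 5 days lay outside that stretch. The contrast between the first and last parts of chromosome 10 thus rests largely on the stretch, and at 5 days it cannot be read as a denser last part. On chromosome 8 density was higher in the last 3 parts, at 24.1 to 28.5 per Mb at 10 days and 6.36 to 8.15 at 5 days, than in the first 2, at 17.6 to 20.7 and 4.24 to 4.73. The second part of chromosome 8, the lowest, contains a stretch of 1567 kb empty in both lists. Chromosomes 6 and 7 did not show a dense last part at 5 days: it held 5.21 per Mb on chromosome 6, whose highest value was 6.69 in the fourth part, and 4.17 per Mb on chromosome 7, whose highest was 5.34, also in the fourth part.

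**Figure D3:**
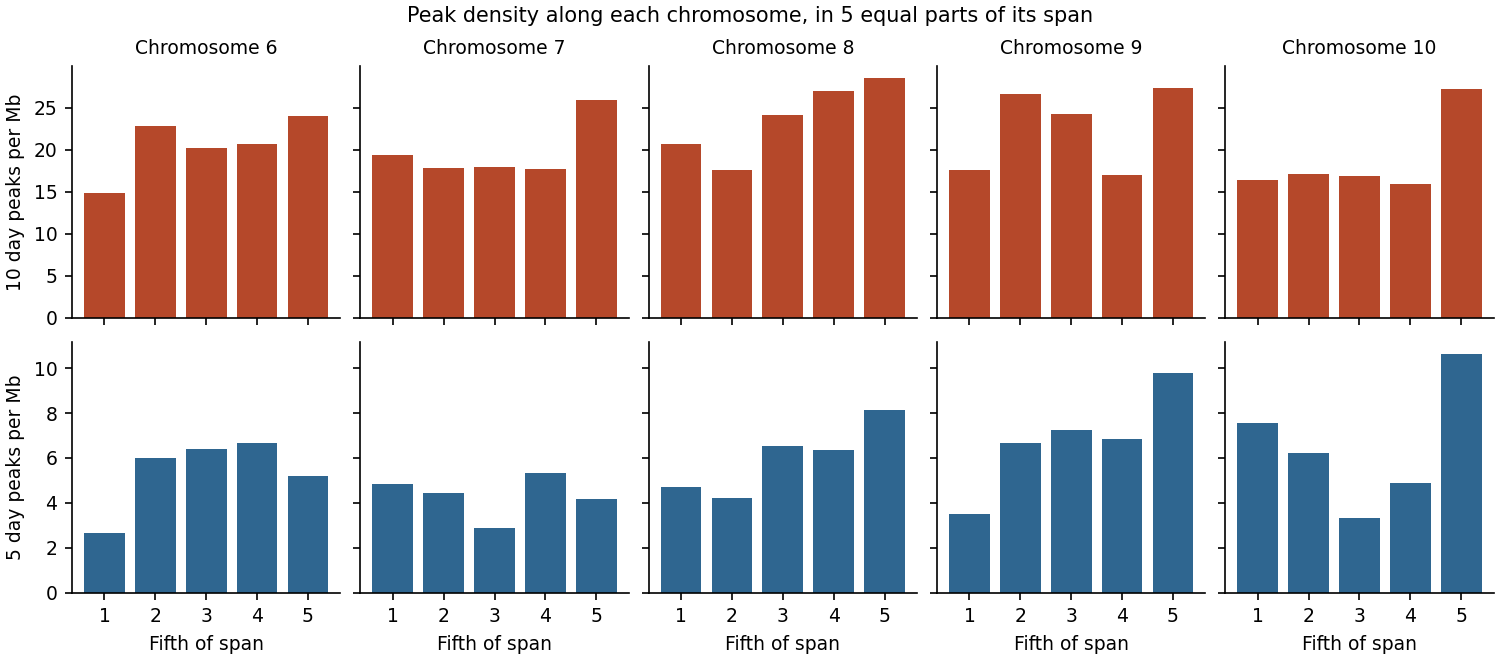
Peaks per Mb in each of 5 equal parts of the span of each chromosome, numbered from base 0, in the 10 day list (upper row) and the 5 day list (lower row, with its own scale). The last part is the highest bar of every chromosome in the upper row, from 24.1 per Mb on chromosome 6 to 28.5 on chromosome 8. Stretches empty in both lists are counted in the parts.

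Some long stretches were empty in both lists. The first peak of either list started at base 1604166 on chromosome 6 and at 1575148 on chromosome 9, against 119 on chromosome 7, 37142 on chromosome 8 and 75170 on chromosome 10. Chromosomes 7, 8 and 10 each had instead 1 internal stretch between neighbouring peak starts of 1503, 1567 and 1561 kb, and their next widest were 509.5, 290.5 and 376 kb. Each of the 5 chromosomes thus had 1 empty stretch of about the same length, at its start or inside it, and whether sequence is assembled there was not tested. When these stretches before the first peak and the widest empty interval were left out of the span, a choice made after seeing the data, the 10 day densities were 21.7, 20.6, 24.9, 24.5 and 20.2 per Mb on chromosomes 6 to 10 in order, and the 5 day densities 5.70, 4.50, 6.33, 7.38 and 7.03 per Mb. Chromosome 10 remained the least dense at 10 days and chromosome 7 at 5 days.

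A smaller part of the 10 day peaks than of the 5 day peaks was found in the other list, as in the whole lists. On the 5 chromosomes, 488 of 3250 peaks in the 10 day list had a 5 day peak lying over them by at least 1 bp (15.0%, 95% Clopper-Pearson interval 13.8 to 16.3), beside 15.8% in the whole list. In the 5 day list, 485 of 873 had a 10 day peak over them (55.6%, 52.2 to 58.9), beside 57.6% in the whole list. Both shares were close to those of their whole lists. At 10 days the share was 11.1% (10.5 to 11.7) on chromosomes 1 to 5 and 20.1% (18.9 to 21.2) on chromosomes 11 to 28. The 10 day share of the 5 chromosomes thus lay between those of the other classes. At 5 days the share was 57.7% (55.5 to 59.8) on chromosomes 1 to 5 and 53.8% (51.5 to 56.1) on chromosomes 11 to 28. The shares on the 5 chromosomes changed with the list used. With the 10 day list limited by score to about the length of the 5 day list, they were 42.7% at 10 days and 41.7% at 5 days. Shared peaks numbered nearly the same in both full lists (488 and 485), so the difference between the 2 full-list shares follows from the list lengths. Between lists of about equal length, the 2 shares are nearly equal by construction. This limit left out 10 day peaks scoring 28 or less, so list length and score changed together. Their parts in the level of the shares cannot be told apart. By chromosome, the share of 10 day peaks was 15.5% on chromosome 6 (119 peaks), 12.3% on chromosome 7 (93 peaks), 14.5% on chromosome 8 (105 peaks), 15.9% on chromosome 9 (92 peaks) and 18.7% on chromosome 10 (79 peaks). Chromosome 7 (10.0 to 14.8) and chromosome 10 (15.1 to 22.8) were the only pair among the 5 whose intervals lay apart. The share of 5 day peaks was 58.4%, 56.0%, 57.1%, 52.3% and 53.1% on chromosomes 6 to 10 in order, with intervals that all overlapped each other. Shared 10 day peaks numbered 3.18, 2.42, 3.43, 3.60 and 3.51 per Mb on chromosomes 6 to 10, and unmatched ones 17.4, 17.4, 20.2, 19.0 and 15.2 per Mb. Chromosome 10 was thus low in unmatched 10 day peaks, not in shared ones, and chromosome 7 was the lowest in shared peaks.

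On each chromosome, peaks in the highest of 5 score classes were overlapped more often than peaks in the lowest. The classes rest on the score, a whole number of unstated meaning that the authors gave each peak, turned into a percentile within its own whole list. The share rose from class to class throughout on chromosome 6 in both lists, and on chromosomes 7 and 8 at 5 days. On the other chromosomes of each list it fell between some neighbouring classes. Above the 80th percentile, 52.7% of the 624 peaks at 10 days on the 5 chromosomes were shared (48.7 to 56.7), beside 55.2% in the whole list. Below the 20th percentile the share was 2.20% of 637 (1.21 to 3.66), beside 2.84%. At 5 days the highest class had 90.4% of 167 peaks shared (84.9 to 94.4), beside 92.8% in the whole list. The lowest class had 20.2% of 183 (14.7 to 26.8), beside 23.0%. These shares were thus close to those of the whole lists. In the highest class the chromosomes ranged from 48.5% on chromosome 7 to 60.0% on chromosome 10 at 10 days, and from 85.7% on chromosome 9 to 96.8% on chromosome 8 at 5 days, with overlapping intervals in each list. In the class from the 20th to the 40th percentile of the 5 day list, 14.6% of 41 peaks on chromosome 9 (5.57 to 29.2) and 15.4% of 26 on chromosome 10 (4.36 to 34.9) were shared, against 46.3% of 41 on chromosome 8 (30.7 to 62.6) and 34.6% in the whole list. Both were below the lowest class of the same chromosome, where 8 of 32 peaks on chromosome 9 (95% interval of the share 11.5 to 43.4%) and 10 of 36 on chromosome 10 (14.2 to 45.2%) were shared. These intervals overlapped those of the class above. At 10 days small falls between neighbouring classes occurred on chromosomes 7, 8, 9 and 10, all below the 60th percentile.

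**Figure D4:**
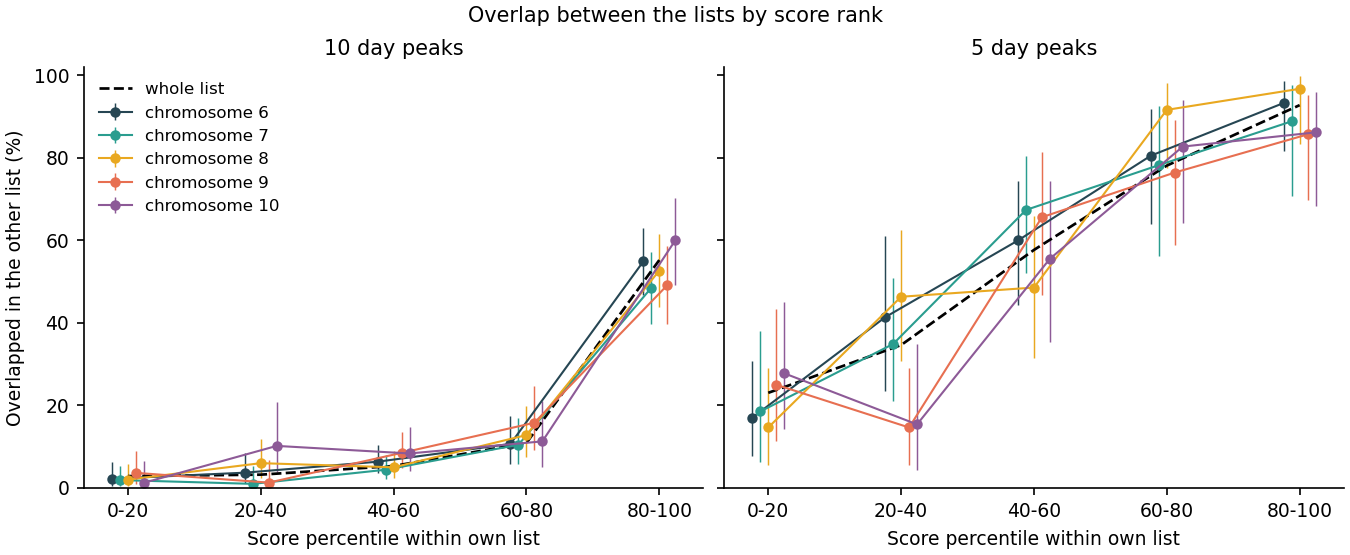
Percentage of peaks overlapped in the other list by score percentile within the own whole list, for each chromosome (points with Clopper-Pearson 95% intervals, shifted sideways for visibility) and for the whole list (dashed line), in the 10 day list (left) and the 5 day list (right). At 10 days the share stays low up to the 80th percentile and reaches 48.5% to 60.0% above it, whereas at 5 days it is already 48.6% to 67.4% between the 40th and 60th percentiles.

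Of the unmatched 10 day peaks, few had a 5 day peak just outside the overlap rule. Of 2762, 30 (1.09%) had a 5 day peak starting less than 1 kb away, and 2418 (87.5%) had none within 10 kb. The same 2 shares were 0.859% and 93.0% on chromosomes 1 to 5, and 2.29% and 78.7% on chromosomes 11 to 28. The median distance to the nearest 5 day start was 69.4 kb, from 53.6 kb on chromosome 9 to 92.4 kb on chromosome 7. Of the 388 unmatched 5 day peaks, 19 (4.90%) had a 10 day peak starting less than 1 kb away, 216 (55.7%) had none within 10 kb, and 5 had none within 100 kb. Under 1 kb and beyond 10 kb, chromosomes 1 to 5 had 6.04% and 60.9%, and chromosomes 11 to 28 had 7.58% and 46.4%. The 5 day list is shorter, so distances to it are longer on that account alone. Where peaks were shared, they were close to the same position: in 479 pairs in which each peak was the nearest to the other, the distance between starts had a median of 40 bp and quartiles of 16 and 74 bp, from 27 bp on chromosome 10 to 47.5 bp on chromosome 6, and 6 pairs started at the same base. Within these pairs the 2 scores had a Spearman correlation of 0.60 over all 5 chromosomes, from 0.54 on chromosome 6 to 0.66 on chromosome 7, across peaks that are not replicates.

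Scores of the 5 chromosomes lay near the middle of their lists. The median score was 25 at 10 days on each chromosome, which is the 51st percentile of the whole 10 day list in each case because of ties. At 5 days the median scores were 23, 21, 21, 22 and 21 on chromosomes 6 to 10 in order, at the 51.5th, 46.4th, 46.4th, 49.1st and 46.4th percentiles. On the 5 chromosomes 19.6% of peaks at 10 days, and 12.0% at 5 days, carried the lowest score of their list. The shares were similar elsewhere: 20.4% and 10.8% on chromosomes 1 to 5, and 18.1% and 12.7% on chromosomes 11 to 28. Peaks of the top decile, at the 90th percentile or above (scores of at least 40 at 10 days and 58 at 5 days), numbered 282 at 10 days (8.68%, 7.73 to 9.70, beside 10.0% of the whole list) and 73 at 5 days (8.36%, 6.61 to 10.4, beside 9.74%). At 10 and 5 days this share was 6.98% and 8.57% on chromosomes 1 to 5, and 12.1% and 9.85% on chromosomes 11 to 28. Among the 5 chromosomes the 10 day share ran from 6.72% on chromosome 7 (5.04 to 8.74) to 9.95% on chromosome 10 (7.27 to 13.2). Of the 282 highest 10 day peaks 239 were shared and 43 were not, and of the 73 highest 5 day peaks 67 were shared and 6 were not. Most of the highest peaks were shared elsewhere too. At 10 days 651 of 768 were shared on chromosomes 1 to 5 and 546 of 603 on chromosomes 11 to 28. At 5 days the counts were 172 of 181 and 176 of 183. Chromosome 8 had the most unmatched peaks among its highest 10 day peaks, 14 of 58, and the fewest among its highest 5 day peaks, 0 of 17.

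Neighbouring peaks started a median of 27.6 kb apart at 10 days (interquartile range 10.1 to 60.7) and 73.4 kb apart at 5 days (23.2 to 191). By chromosome the median was 28.2, 28.9, 26.0, 24.8 and 33.0 kb at 10 days on chromosomes 6 to 10 in order, and 70.2, 99.0, 73.1, 63.4 and 67.7 kb at 5 days. Chromosome 10 was the widest at 10 days and chromosome 7 at 5 days, and each was also the least dense at that age. The rest of the order did not match throughout. Chromosome 8 was the densest at 10 days, but chromosome 9 had the shortest median spacing. Spacing and density come from the same peaks, so neither is separate evidence for the other. The median spacing was 0.592 of the mean spacing at 10 days and 0.427 of it at 5 days. The same ratios were 0.623 and 0.340 on chromosomes 1 to 5, and 0.530 and 0.429 on chromosomes 11 to 28. The means include the internal stretches empty in both lists. Whether the spacing departs from random placement was not tested. The next peak was less than 10 kb away in 24.7% of neighbouring pairs at 10 days, from 21.1% on chromosome 10 to 28.2% on chromosome 8, and in 13.6% at 5 days, from 11.5% on chromosome 8 to 17.9% on chromosome 6. Chromosome 8 was thus highest in this measure at 10 days. At 5 days its 11.5% lay close to the 11.6% of chromosome 10 and the 12.1% of chromosome 9. The share of pairs under 10 kb at 10 and 5 days was 19.8% and 12.9% on chromosomes 1 to 5. On chromosomes 11 to 28 it was 33.6% and 18.5%. A fixed limit of 10 kb is met more often where peaks are denser. Distances over 500 kb numbered 4 at 10 days and 69 at 5 days, and chromosome 7 had 21 of those at 5 days. At 10 and 5 days they numbered 17 and 348 on chromosomes 1 to 5, and 7 and 56 on chromosomes 11 to 28. Shared peaks taken alone lay a median of 139 kb apart in the 10 day list and 140 kb apart in the 5 day list, while unmatched peaks lay 32.2 kb apart at 10 days and 166 kb apart at 5 days.

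**Figure D5:**
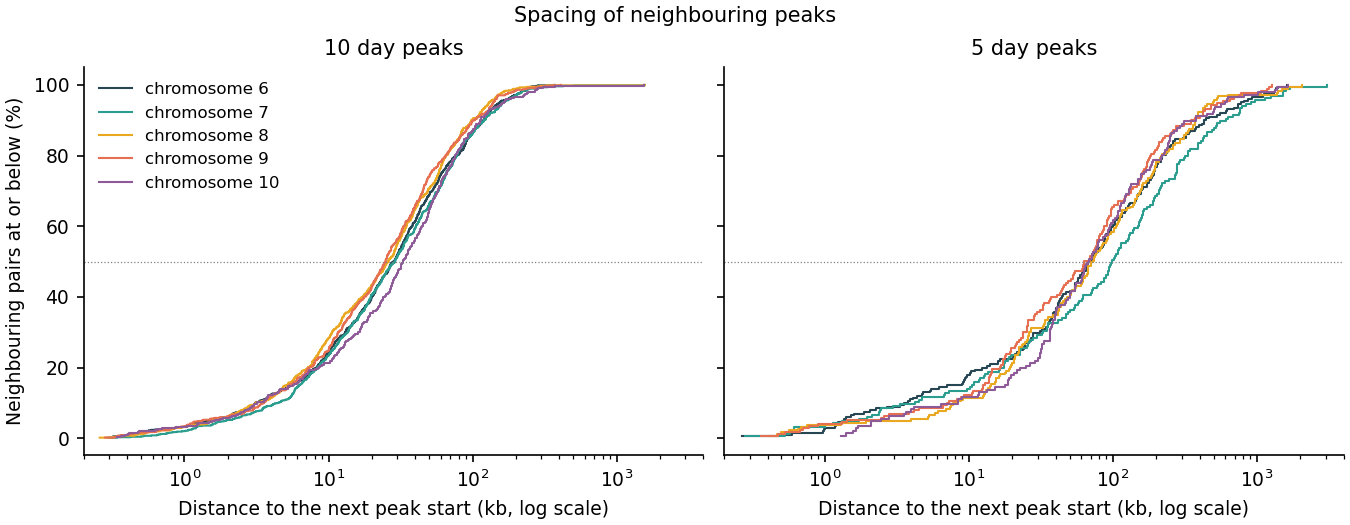
Cumulative percentage of neighbouring peak pairs by the distance between their starts (kb, log scale) on each chromosome, in the 10 day list (left) and the 5 day list (right); the dotted line marks 50%. Chromosome 10 lies to the right of the others at the middle of the 10 day panel (median 33.0 kb) and chromosome 7 in the 5 day panel (median 99.0 kb).

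Closely spaced peaks were a minority. A neighbour starting less than 1 kb away was found for 187 peaks at 10 days (5.75%, beside 6.98% in the whole list) and for 49 peaks at 5 days (5.61%, beside 8.95%). At 10 and 5 days the shares were 5.33% and 6.02% on chromosomes 1 to 5, and 7.76% and 7.05% on chromosomes 11 to 28. The whole lists also hold peaks on sequence outside these classes. None of the 147 peaks on chromosome 10 at 5 days had such a neighbour, and the closest pair there was 1289 bp apart. Runs of at least 3 peaks with every start less than 10 kb from the previous one held 575 of the 3250 peaks at 10 days and 51 of the 873 at 5 days. On chromosome 8 such runs held 157 peaks at 10 days and 3 at 5 days. A fixed limit of 10 kb is met more often in the denser 10 day list on that account alone. Runs were not counted on other chromosomes, so no share of the whole lists can be set beside these counts. The longest runs held 8 peaks at 10 days, once each on chromosomes 6, 7 and 8, and 7 peaks at 5 days, on chromosome 7.

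On chromosome 6 the strongest 10 day peak lay near the end of the span, at 37381801 to 37382199, with a score of 169 that ranked 136 in the whole list. The 5 day peak there, starting 33 bp away, scored 95 and ranked 2 on the chromosome. The second 10 day peak, at 24341538 to 24341936, scored 117 (98.8th percentile), and its 5 day counterpart, 1 bp away, scored 47 (83.6th percentile). Here and below, scores of the 2 lists cannot be compared in size, because their meaning is not stated. Only ranks within a list can be set side by side. At the strongest 5 day peak, at 18641784 to 18642182, the 10 day peak scored 108 and ranked 3 on the chromosome, and the 5 day peak scored 110. The first site and the last were thus near the top of the chromosome at both ages. The highest unmatched 10 day peak was at 36972603 to 36973001 (score 56), 38766 bp from the nearest 5 day start, and the highest unmatched 5 day peak at 27346997 to 27347395 (score 75). The fullest bin at 10 days, from 36000001 to 37000000, held 45 peaks and ranked 14 of 38 at 5 days with 7. The median score of the 45 was 24, and 4 of them were shared. The fullest bin at 5 days, from 24000001 to 25000000, held 26 peaks at 10 days and 14 at 5 days, of which 7 were shared. The run of 8 peaks at 10 days spanned 36991063 to 37022599, with scores up to 38 and 2 peaks shared. The bin from 25000001 to 26000000, chosen after its values were seen, held 15 peaks at 10 days and 9 at 5 days with none shared, and its 5 day scores had a median of 13, the lowest score in that list. The widest distance between neighbours was 371 kb at 10 days, and 1609 kb at 5 days, where the 10 day list had 19 peaks scoring at most 37.

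On chromosome 7 a single site stood out. The 10 day peak at 7304945 to 7305343 scored 462, the highest on the 5 chromosomes, and ranked 43 in its whole list, and the 5 day peak 42 bp away scored 152 and ranked 48 in its list. This site was the left border of the empty stretch of 1503 kb on this chromosome. The next 10 day peak, at 7011796 to 7012194, scored 135 (99.1st percentile), and the 5 day peak at the same bases scored 56 (89.4th percentile). The strongest 5 day peak lay at the very end of the span, at 38356808 to 38357206, where the 10 day peak scored 119 and ranked 3 on the chromosome and the 5 day peak scored 167. The highest unmatched 10 day peak, at 23513392 to 23513790 (score 54), had a 5 day peak starting 525 bp away, whereas the highest unmatched 5 day peak, at 33088750 to 33089148 (score 87), lay 3723 bp from the nearest 10 day start. The fullest bin at 10 days, from 37000001 to 38000000, held 50 peaks at 10 days and 12 at 5 days. It was the fullest bin of the 5 chromosomes, with 4 peaks shared, a median score of 25 and 2 peaks in the top decile. The fullest at 5 days, from 12000001 to 13000000, held 17 peaks at 10 days, 8 of them in the top decile, and 14 at 5 days. It ranked 24 of 39 bins at 10 days. Between 33121534 and 36170184 the 10 day list had 50 peaks, 1 of them in its top decile and the highest scoring 43, while the 5 day list had none for 3049 kb, the longest such distance on the 5 chromosomes.

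On chromosome 8 the strongest peaks of the 2 ages were at different sites. At 10 days they were at 8985116 to 8985514 (score 154) and 4007358 to 4007756 (score 141), where the 5 day peaks scored 61 and 78 and ranked 16 and 4 on the chromosome. At 5 days they were at 21620829 to 21621227 and 29499826 to 29500224, where the 10 day peaks scored 93 and 103 and ranked 10 and 8, and the 5 day peaks scored 148 and 106. All 4 sites were shared and lay within the top decile at both ages. The highest unmatched 10 day peak was at 2599142 to 2599540 (score 51), with the nearest 5 day start 570545 bp away, and the highest unmatched 5 day peak was at 7759475 to 7759873, with a score of 49, at the 84.9th percentile. The fullest bin at 10 days, from 29000001 to 30000000, held 47 peaks at 10 days and 13 at 5 days, 10 of them shared, and ranked 3 at 5 days. The bin from 21000001 to 22000000 held 30 peaks at 10 days and 21 at 5 days, the most of any bin at 5 days. Of these, 14 and 15 were shared, so this bin held the strongest 5 day peak of the chromosome and its largest number of shared peaks. By contrast, the bin from 18000001 to 19000000, chosen after its values were seen, held 24 peaks at 10 days, scoring 22 to 32, and 0 at 5 days. It lay inside the widest 5 day distance, 2062 kb with 45 peaks at 10 days, none in the top decile. The run of 8 peaks at 10 days, from 30183813 to 30217750, had scores up to 31 and no 5 day peak.

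On chromosome 9 the strongest 10 day peak was at 9483945 to 9484343 with a score of 164, and the 5 day peak there scored 86 and ranked 5. The second, at 1895835 to 1896233, scored 121 (98.9th percentile), and its 5 day counterpart scored 46 (82.8th percentile). Close beside it lay the highest unmatched 10 day peak of the 5 chromosomes, at 1894743 to 1895141, with a score of 81 and the same 5 day peak 958 bp away. The strongest 5 day peaks were at 10323081 to 10323479 and 6742975 to 6743373, where the 10 day peaks scored 77 and 42 and ranked 13 and 47, and the 5 day peaks scored 98 and 96. No peak on this chromosome scored above 98 at 5 days, the lowest maximum of the 5 chromosomes. The highest unmatched 5 day peak was at 24440350 to 24440748 (score 62). The fullest bins differed between the ages. From 21000001 to 22000000 there were 35 peaks at 10 days and 10 at 5 days. The bin from 25000001 to 26000000, incomplete because the span ends inside it, held 24 and 19, of which 8 in each list were shared. A further pair of bins, chosen after their values were seen, differed in opposite ways. From 16000001 to 17000000 there were 23 peaks at 10 days and 16 at 5 days, of which 3 in each list were shared. The count of 16 was the highest of the complete bins of chromosome 9 at 5 days. The bin had 13 unmatched 5 day peaks, more than any other bin of the 5 chromosomes, with a median score of 17. From 8000001 to 9000000 there were 33 peaks at 10 days, scoring 22 to 37, and 0 at 5 days. The chromosome had the shortest of the widest 5 day distances, at 1274 kb.

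On chromosome 10 the 2 strongest 10 day peaks lay towards the far end of the span. The 10 day peaks at 22405898 to 22406296 and 20198645 to 20199043 scored 131 and 120, and the 5 day peaks there scored 78 and 106, the second being the strongest 5 day peak of the chromosome. At the second 5 day peak, at 4767741 to 4768139, the 10 day peak, starting 2 bp away, scored 86 and ranked 12 on the chromosome, and the 5 day peak scored 91. The highest unmatched peaks were at 9868633 to 9869031 at 10 days (score 44) and at 7784719 to 7785117 at 5 days (score 70), the nearest start of the other list being 20870 and 44042 bp away. The score of 44 was the lowest of the highest unmatched 10 day scores of the 5 chromosomes. The bin from 21000001 to 22000000 was the fullest at both ages, with 38 peaks at 10 days and 14 at 5 days, of which 9 in each list were shared; on the other 4 chromosomes the fullest bins of the 2 ages were different. The incomplete bin after it, from 22000001 to the end of the span, held 22 peaks at 10 days and 13 at 5 days, of which 11 and 10 were shared. The bin from 2000001 to 3000000 was empty at both ages, within the stretch of 1561 kb described above.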

How the data were processed

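CTCF chromatin immunoprecipitates from 2 libraries were sequenced, per the labels' protocols. Each deposited list is a headerless BED file of 6 columns holding 1 peak of 399 bp per row, with a score in column 5 that the authors deposited as a whole number (22 to 3381 at 10 days, 13 to 738 at 5 days). Not given in the sources used here are the genome build, the aligner, the peak caller, any control, pooling and what the score means. Read depth is unknown. Starts are printed with the first base counted as 1.

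The chromosomes and measures were chosen with earlier results of these data known. Overlap needed at least 1 bp. Scores were ranked within their own list, with ties sharing a mean rank. Bins of 1 Mb began at base 0, and complete ones were summarised. The incomplete last bin of each chromosome was kept when the fullest bins were named and ranked. Spans ended at the last peak end in either list. Shares have Clopper-Pearson intervals, densities exact Poisson intervals and ratios exact conditional binomial intervals, all at 95%. No p-value was computed, because each age had 1 library. For each chromosome and list the text names the top 2 shared peaks by score and the top unmatched peak, the fullest bin and the widest distance between neighbours at each age, and marks others as chosen after their values were seen; the ends of the widest distances are not all printed. The gene table at hand is of another assembly (GRCg7b), so no peak was assigned to a gene and no sequence is printed. Functions were tested on simulated lists. Alternatives changed the overlap rule, score limit, list length, bin size, span, ranking and closely spaced peaks. Calculations used scipy 1.17.1, pandas 2.3.3 and numpy 2.4.6 under Python 3.11.15, and plots matplotlib 3.10.9.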

Additional observations from a re-analysis of the deposited data

Results flagged for a closer look

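Peaks outside the 5 assigned sequences but named for these chromosomes were looked at separately, because they enter none of the comparisons above. The random sequence of chromosome 8 held 7 peaks in the 10 day list, none of them shared and scoring 22 to 26, and 0 in the 5 day list. The count of 7 was noted because a count of 0 allows up to 3 peaks, but the 10 day list is 3.66 times as long as the 5 day list, and the difference was not tested. The random sequences of chromosomes 6 and 7 held 1 peak each at 10 days and 0 at 5 days.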

How the results depend on the processing

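Of 33 alternatives for the values over all 5 chromosomes, 18 stayed within the interval of the value (within 1.5 times for counts of peaks, and within the SD of the 5 chromosomes for the bin correlation and the variance of bin counts), 14 moved and 1 turned its direction. Keeping only peaks at or above the median score of their list left 1712 peaks at 10 days and 437 at 5 days, shares of overlapped peaks of 19.2% at 10 days and 75.5% at 5 days, and median spacings of 49.5 and 146 kb. Limiting the 10 day list by score to about the length of the 5 day list left 845 peaks. The ratio of 10 day to 5 day peaks turned below 1, to 0.968 over the 5 chromosomes and to 0.989, 0.897 and 0.816 on chromosomes 8, 9 and 10. The shorter list lowers these ratios by construction. Shares of overlapped peaks were then 42.7% at 10 days and 41.7% at 5 days, with list length and score changed together. Widening peaks by 500 bp gave a 10 day share of 16.6%. Ranking without unplaced, random and linkage group sequence put the 10 day median at the 52.2nd percentile. Leaving out the empty stretches, an alternative chosen after seeing the data, gave 22.3 peaks per Mb at 10 days. Bins of 2 Mb gave a variance of 4.48 times the mean at 10 days and 3.90 times at 5 days. The cause of these moves was not tested beyond the fewer peaks that the score limits leave. Of 165 alternatives for single chromosomes, 103 stayed, 59 moved and these 3 turned. No paired analysis was possible because there is only 1 library at each age, which also means that none could be omitted in turn. Since read depth is unknown, a peak missing from a list may have been missed for want of reads, which was not tested.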
